A study of Mus musculus with 9 samples.

Results

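Cholesterol synthesis in NIH 3T3 cells, an established mouse fibroblast line, was followed through 8 genes. Hmgcs1, Idi1, Fdps, Fdft1, Sqle and Lss encode enzymes of the pathway, and Srebf2 and Insig1 encode regulators of it. Every probe set that the platform annotation gives to 1 of these symbols and to no other was taken, which made 20 of the 45101 probe sets on the array, for 8 of 18194 genes with a probe set of their own. No gene of cholesterol uptake is among the 8, so the values below describe synthesis and its control.

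RNA of 9 cultures was hybridised to Affymetrix arrays, 3 per condition. Per the labels' protocols, the cells were serum-starved and all of them, controls included, received cycloheximide, an inhibitor of translation, at 3 µg/ml for 2 h. The control group received nothing else. The cytochalasin D group also received cytochalasin D, a drug that binds actin filament ends, at 2 µM for 90 min. The double-drug group is labelled as treated with cytochalasin D at 2 µM together with latrunculin B, a drug that binds actin monomers, at 5 µM for 90 min. Titles of the double-drug arrays mention latrunculin B and not cytochalasin D, so the group follows the agent label, which the series design shares. The design calls the 3 arrays of a condition independent biological replicates, and their titles number them 1, 3 and 7. Cycloheximide was thus present on every array, and no array shows the pathway without it.

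Cells make cholesterol from acetyl-CoA through mevalonate, isoprenoid diphosphates and squalene. SREBP2, the product of Srebf2, is a transcription factor held in the endoplasmic reticulum by SCAP and INSIG proteins while sterols are plentiful; when sterols run low it is cut free and switches on genes of the whole pathway, its own gene and Insig1 included. Fibroblasts deprived of serum lose their outside supply of lipoprotein cholesterol and rely on this route.

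Of the 20 probe sets, 17 exceeded the 40th percentile of their own array on at least 3 arrays and were tested, with 27010 probe sets tested in all. Those left out were dim on every array: Fdps 1438150_at read at most 4.88, Fdft1 1438919_x_at at most 3.95 and Fdft1 1438918_at at most 3.90. The median intensity of an array lay between 7.57 and 7.84. All 9 fibroblast markers examined (such as Col1a1, Pdgfrb and Vim) were above an intensity of 100 on every array. Among markers of other cells, Cd14 was above it on every array as 1 of 6 leukocyte markers, and none of 6 epithelial, 4 endothelial and 5 adipocyte markers was. The summed intensity of the leukocyte markers ran from 203 to 283 and that of the endothelial markers from 18.3 to 19.0. With 3 arrays a group, their number sets the precision.

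SREBP2 is known to work through short sites in promoters of its target genes. Printed here are stretches of both member promoters with a match to such a site, that of Insig1 as the other regulator, and that of Srf for contrast. Sequences are from RefSeq (GRCm38.p6), whose promoter table held 5 of the 8 genes, namely Hmgcs1, Srebf2, Insig1, Idi1 and Lss. The 250 bases before each start site were searched on both strands for TCACCCCA, an 8-base form of the sterol regulatory element, and for CCAAT, the motif of NF-Y, a factor that binds beside SREBP. Capitals mark matches, and ATTGG is CCAAT on the other strand. In Srf, which encodes serum response factor, capitals also mark the CArG box, the motif that this factor binds.

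Hmgcs1: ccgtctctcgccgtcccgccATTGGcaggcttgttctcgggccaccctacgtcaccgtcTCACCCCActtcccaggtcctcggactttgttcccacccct

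Srebf2: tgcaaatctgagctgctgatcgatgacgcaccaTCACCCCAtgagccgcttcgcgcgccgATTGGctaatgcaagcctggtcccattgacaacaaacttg

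Insig1: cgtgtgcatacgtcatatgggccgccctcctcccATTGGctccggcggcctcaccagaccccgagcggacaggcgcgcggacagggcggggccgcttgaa

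Srf: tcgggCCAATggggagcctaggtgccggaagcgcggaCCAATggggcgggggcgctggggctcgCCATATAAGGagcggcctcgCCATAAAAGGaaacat

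The Hmgcs1 stretch lies at chr13:119690155-119690254 on the plus strand, the Srebf2 stretch at chr15:82147074-82147173 on the plus strand, and the Insig1 stretch at chr5:28071162-28071261 on the plus strand. The Srf stretch lies at chr17:46556209-46556308 and is read on the minus strand. TCACCCCA was found in Hmgcs1 and Srebf2, 2 of the 5 members, in 0 of 14 promoters of the other sterol enzymes and in 1.34% of 32851 promoters of the same length. The form TCACNCCAC, which overlaps it, was found in Hmgcs1, in 0 of the same 14 and in 1.05% of all promoters. CCAAT was found in all 5 member promoters, in 13 of the 14 and in 33.8% of all. The CArG box was found in none of the 5 and in 1.47% of all. A match is a description of these letters and not evidence of binding, and a window without one says nothing of the factor.

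None of the 8 genes passed the test in any comparison of the drugs. In bulk RNA, less RNA per cell and fewer cells of a kind cannot be told apart. The 8 most intense probe sets, 1 per gene, differed between groups by small amounts, and the 95% interval of every one of them lay within 0.5 on the log2 scale on either side of 0 in each comparison. Differences are on the scale log2(intensity + 16), from limma across all 27010 probe sets with Benjamini-Hochberg adjustment, called at an adjusted p under 0.05. Known responders to cytochalasin D had larger differences on the same arrays. Srf 1418255_s_at had an intensity of 187 ± 30.9 in control, 1475 ± 311 with cytochalasin D and 827 ± 164 with the drug pair (SD, n = 3 each). It rose by 2.87 with cytochalasin D (SE 0.21, adjusted p = 0.00191) and by 2.05 with the drug pair (adjusted p = 0.0393). The second of these calls was lost when any 1 of the 9 arrays was left out, with changes of 1.92 to 2.22 and adjusted p of 0.0589 to 0.186. Acta2 1416454_s_at, which encodes smooth muscle actin, rose by 2.08 with cytochalasin D (adjusted p = 0.00337), and its difference with the drug pair was 1.02 (adjusted p = 0.167).

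**Figure D1:**
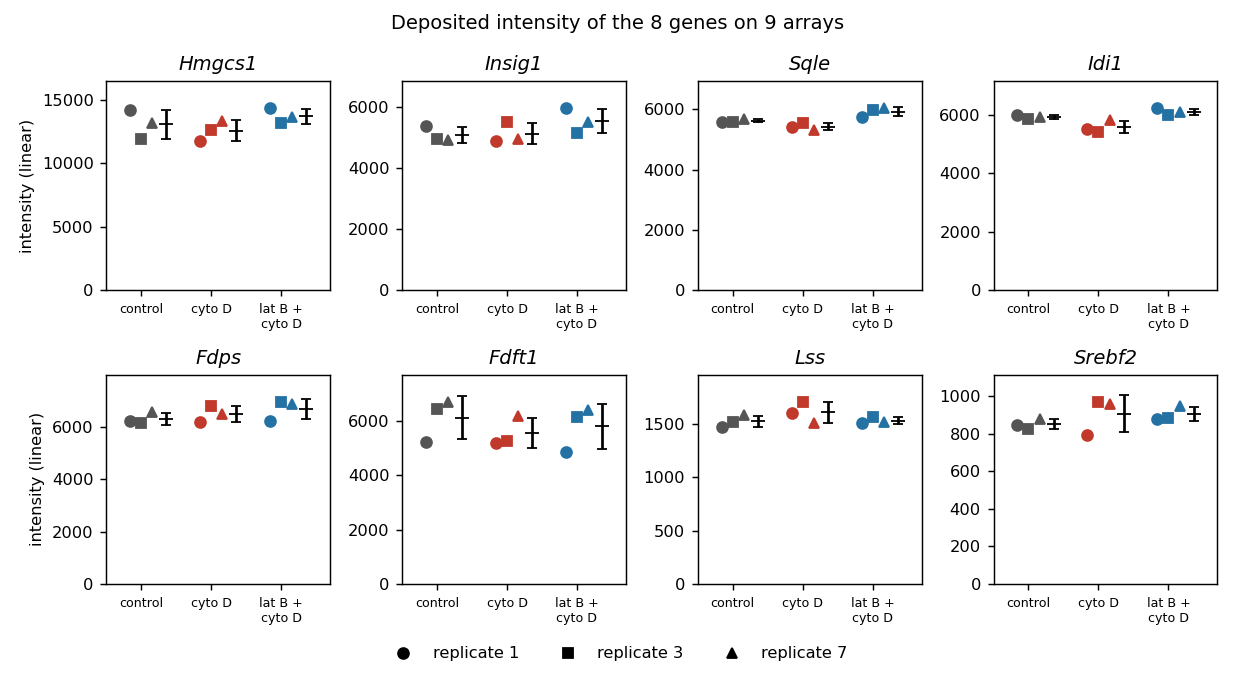
Deposited intensity (linear scale from 0) of the most intense probe set of each of the 8 genes on all 9 arrays, by group (cyto D, cytochalasin D; lat B, latrunculin B) and replicate number. Horizontal marks are group means with SD bars (n = 3). The 3 groups of Sqle and of Idi1 are separate but close, and the groups of the other 6 genes overlap in each comparison.

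The first comparison asked whether cytochalasin D changed the pathway against control. Among the most intense probe sets of the 8 genes, those of Sqle and Idi1 had the lowest SE. For Sqle, the squalene epoxidase that commits squalene to the sterols, probe set 1415993_at read 5594, 5595 and 5689 in control replicates 1, 3 and 7 and 5423, 5543 and 5309 with cytochalasin D. The cytochalasin D arrays were all below the control arrays, by -0.053 in log2 (SE 0.024, 95% interval -0.11 to 0.0048, adjusted p = 0.55). For Idi1, the isomerase that turns isopentenyl diphosphate into its reactive form, 1451122_at read 5983, 5846 and 5925 in control and 5521, 5398 and 5827 with cytochalasin D. These groups did not overlap either, and the difference was -0.085 (SE 0.030, interval -0.16 to -0.013, adjusted p = 0.383). Its second probe set 1423804_a_at had a difference of -0.26 in the same direction, with a wider spread (SE 0.138) and overlapping groups.

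Hmgcs1, the synthase that makes HMG-CoA at the head of the pathway, showed no separation of the groups. Its probe set 1433445_x_at read 14176, 11897 and 13170 in control and 11731, 12646 and 13378 with cytochalasin D, a difference of -0.054 (interval -0.23 to 0.13). The control arrays spanned the cytochalasin D arrays except for replicate 1, which was the lowest. Groups also overlapped on the other Hmgcs1 probe sets, which went both ways. Their differences were -0.12 for 1433443_a_at, -0.11 for 1433444_at, 0.21 for 1433446_at and -0.43 for 1441536_at. Fdft1, the squalene synthase, had the widest interval of the 8, with 5213, 6424 and 6682 in control and 5172, 5261 and 6163 with cytochalasin D for 1438322_x_at, and a difference of -0.14 (interval -0.47 to 0.20). Replicate 1 was the lowest array of both groups.

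Fdps, which makes farnesyl diphosphate, had intensities between 6128 and 6936 over all 9 arrays, and a difference of 0.042 (interval -0.085 to 0.17). Lss, the cyclase that forms lanosterol, read 1475, 1515 and 1583 in control and 1607, 1705 and 1513 with cytochalasin D on 1420013_s_at, a difference of 0.076 (interval -0.036 to 0.19). The regulators were no different in this respect. Srebf2 1426744_at read 847, 827 and 880 in control and 792, 968 and 959 with cytochalasin D, a difference of 0.084 (interval -0.10 to 0.27). Insig1 1454671_at read 5370, 4927 and 4914 in control and 4882, 5507 and 4946 with cytochalasin D, a difference of 0.011 (interval -0.16 to 0.18). On these probe sets of both regulators cytochalasin D arrays were found below and above the range of the control arrays. Srebf2 1452174_at had a difference of 0.19 with overlapping groups, higher with cytochalasin D in 3 of the replicate numbers.

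Over the 17 tested probe sets, 7 had a higher and 10 a lower mean with cytochalasin D, and their median difference was -0.053, against -0.00098 over all probe sets. None was called, where 1.57% of all probe sets were (423, and 227 to 478 with 1 array left out, fewest without cytochalasin D replicate 3). At an unadjusted p under 0.05, 1 of 17 passed, beside 10.2% of all. The cytochalasin D and control arrays did not overlap for 2 of 17, beside 11.5% of all. Every interval but that of the dim Hmgcs1 probe set 1441536_at, whose intensities ran from 18.4 to 53.4, lay within 1 of 0 in log2.

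**Figure D2:**
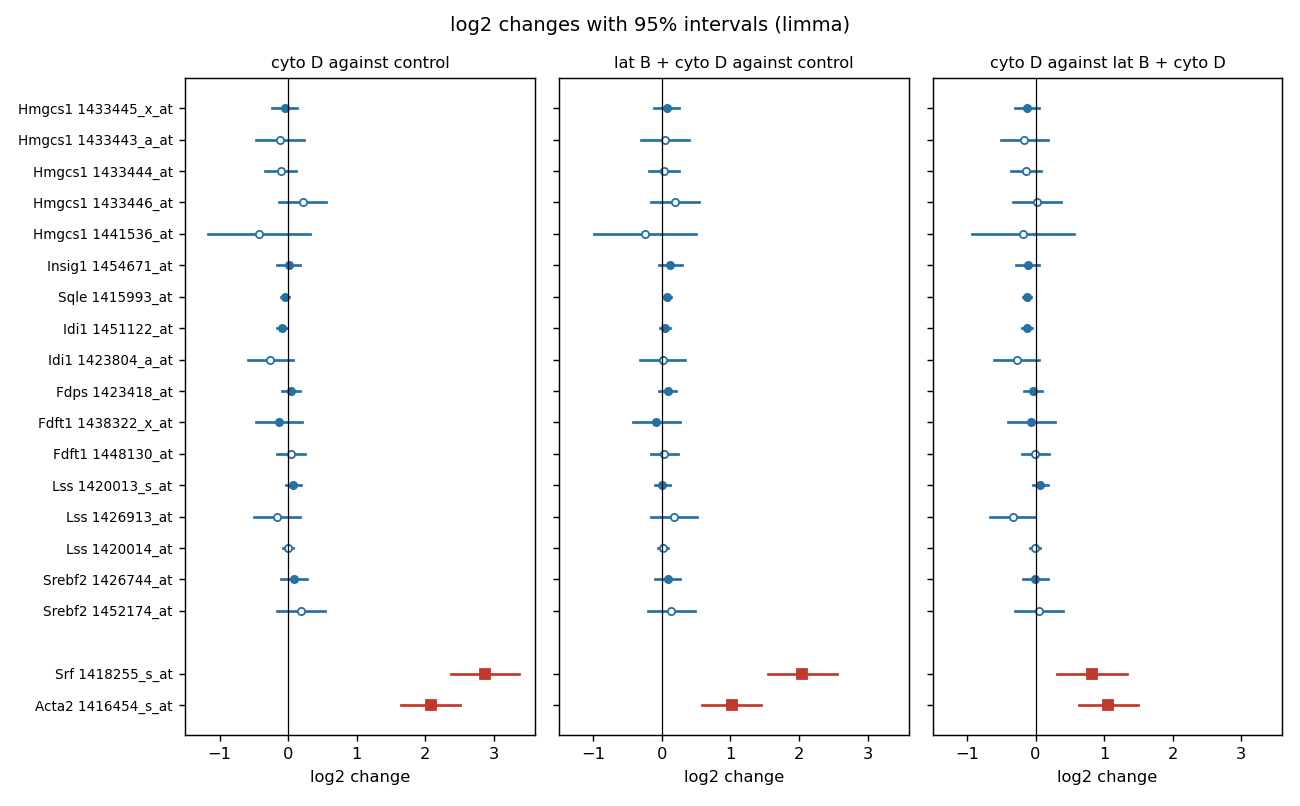
log2 change with its 95% interval from limma for the 17 tested probe sets (blue, filled for the most intense of each gene) and for Srf and Acta2 (red) in the 3 comparisons. Changes of the 17 lie between -0.43 and 0.21, while those of Srf and Acta2 reach 2.87 and 2.08 with cytochalasin D.

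The second comparison set the drug pair against the same control arrays, so its values share those controls with the first. For Sqle, the double-drug arrays read 5764, 5993 and 6039, all above the highest control array, with a difference of 0.076 (interval 0.019 to 0.13, unadjusted p = 0.0168 and adjusted p = 0.673 from limma). Idi1 1451122_at read 6223, 6003 and 6087, again all above control, with a difference of 0.045 (interval -0.028 to 0.12). Insig1 read 5943, 5152 and 5507 and had the highest difference of the 8, 0.12 (interval -0.043 to 0.29); within each replicate number the double-drug array was above its control. Hmgcs1 1433445_x_at read 14345, 13170 and 13649, with a difference of 0.072 and a control array above 2 of these 3. The differences of Fdps (0.082), Srebf2 (0.085), Lss (0.0076) and Fdft1 (-0.079) all had intervals that included 0.

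In this comparison 15 of 17 probe sets had a higher mean with the drug pair, and 56.1% of all probe sets did. The share over all probe sets depended on the filter, with 46.9% at the 60th percentile (14 of 16 members) and 69.7% without a filter (18 of 20). In 10 of 17 the double-drug array was the higher one in each of the 3 replicate numbers, beside 29.3% of all. The size was small, with a median difference of 0.046 over the 17 and 0.0032 over all probe sets. None of the 17 was called, beside 0.111% of all probe sets. That share is 30 probe sets, which became 0 without double-drug replicate 3 or 7 and 42 without control replicate 1, the range over all arrays left out in turn, and 123 with the replicate block. At an unadjusted p under 0.05 there was 1 of 17 (Sqle), beside 5.28% of all, and 2 of 17 had groups that did not overlap, beside 8.08%. With the replicate block, the unadjusted p from limma was 0.0271 for Sqle (adjusted p = 0.364) and 0.0361 for Lss 1426913_at (adjusted p = 0.407).

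The third comparison set cytochalasin D alone against the drug pair, which by the agent label differ by latrunculin B. Sqle and Idi1 had the lowest p-values of the members in the fit without the replicate block. Sqle was lower with cytochalasin D alone by -0.13 in log2 (SE 0.024, interval -0.19 to -0.071), which is 0.915-fold, with an unadjusted p of 0.00119 and an adjusted p of 0.203 from limma. Within replicate numbers 1, 3 and 7 the differences were -0.088, -0.11 and -0.18. Idi1 1451122_at was lower by -0.13 (SE 0.030, interval -0.20 to -0.057, unadjusted p = 0.00393, adjusted p = 0.4), with -0.17, -0.15 and -0.063 within the numbers. The other Idi1 probe set, 1423804_a_at, read 1979, 2435 and 2973 with cytochalasin D alone and 2834, 2900 and 3081 with the drug pair. That was lower in 3 of 3 numbers with overlapping groups (-0.27, interval -0.60 to 0.055).

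The probe sets of Lss did not give 1 answer. Lss 1426913_at read 297, 329 and 353 with cytochalasin D alone and 372, 432 and 444 with the drug pair, with no overlap and a difference of -0.34 (interval -0.67 to -0.0021, unadjusted p = 0.049, adjusted p = 1.0). Lss 1420013_s_at, read above, had a difference of 0.068 (interval -0.044 to 0.18), in the other direction. The third, 1420014_at, was dim, with intensities from 8.64 to 10.9 over all 9 arrays, and had a difference of -0.013. Of the remaining members, Hmgcs1 1433445_x_at (-0.13), Insig1 (-0.11), Fdps (-0.040) and Fdft1 (-0.059) had intervals that included 0, as had Srebf2 1426744_at (-0.0010, interval -0.19 to 0.19). With the replicate block, the lowest unadjusted p of the members from limma was 0.00285, for Lss 1426913_at (adjusted p = 0.162). It was 0.0034 for Sqle (adjusted p = 0.175) and 0.00446 for Idi1 1451122_at (adjusted p = 0.197). Hmgcs1 1433443_a_at, at -0.17, had 0.00775 (adjusted p = 0.253).

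Here 14 of 17 probe sets had a lower mean with cytochalasin D alone, beside 62.6% of all probe sets, and 8 of 17 were lower in each of the 3 numbers, beside 14.7% of all. These 8 were 3 of Hmgcs1, both of Idi1, and those of Sqle, Fdps and Lss 1426913_at. The median difference was -0.11, against -0.0059 over all. None was called, beside 0.259% of all (70, and 3 to 59 with 1 array left out, fewest without double-drug replicate 3). At an unadjusted p under 0.05 without the block there were 3 of 17, beside 4.22%, and the groups did not overlap for 3 of 17, beside 6.26%. Probe sets of 1 gene measure 1 transcript pool and genes of 1 pathway are not independent, so these counts carry no test. The share of all probe sets with a lower mean here was 54.3% with the 60th percentile filter (13 of 16 members) and 74.2% without a filter (17 of 20). It also depended on scaling: centring each array on its median gave 69.5% here. The same centring gave 65.8% lower for cytochalasin D against control in place of 54.4%. The split of the 17 was the same under that scaling and under quantile normalization, in each comparison.

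Each replicate number holds 1 array of every group. The number was tested beside the agent group with limma's moderated F-test, and 1 of the 17 probe sets was called, beside 12.6% of all probe sets (3399, and 170 to 2992 with 1 array left out, fewest without double-drug replicate 1). Unadjusted, 6 of 17 had p under 0.05, beside 28.9%. The one called was Hmgcs1 1433443_a_at (adjusted p = 0.0193). It read 9678, 11858 and 12342 in control, 8901, 10385 and 11926 with cytochalasin D, and 10158, 12348 and 12439 with the drug pair, so replicate 1 was the lowest array of every group. The difference of replicate 3 over 1 was 0.27 (SE 0.039, adjusted p = 0.0315) and that of 7 over 1 was 0.35 (SE 0.039, adjusted p = 0.00907). This call rests on the spread of all 3 groups, and it was absent when control replicate 1 or 7 or double-drug replicate 1 or 3 was left out.

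Between replicates 7 and 1, 4 of 17 probe sets passed the test of that pair, beside 18.6% of all, a share near that of the members. Apart from the Hmgcs1 probe set, these did not pass the F-test over the 3 numbers (adjusted p = 0.0595 for Fdft1, 0.0546 for Lss and 0.0589 for Srebf2). With Hmgcs1 1433443_a_at, Fdft1 1438322_x_at was higher in replicate 7 by 0.34 (adjusted p = 0.0273) and Lss 1426913_at by 0.32 (adjusted p = 0.0268), whereas Srebf2 1452174_at was lower, by -0.28 (adjusted p = 0.0434). Srebf2 1452174_at read 437, 327 and 323 in control, 441, 397 and 395 with cytochalasin D, and 467, 348 and 382 with the drug pair, with replicate 1 the highest of each group. Between replicates 3 and 1, 1 of 17 passed, beside 6.99% of all, and between 7 and 3 none did, beside 0.0555%.

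For each of these 4 genes another probe set did not follow. Hmgcs1 1433446_at read 3213, 2395 and 2234 in control, with replicate 1 highest, and its difference of 7 over 1 was -0.32 (adjusted p = 0.0633), against 0.35 for 1433443_a_at; the most intense Hmgcs1 probe set gave 0.0039. Fdft1 1448130_at read 4203, 3429 and 3699 in control and gave -0.11 (adjusted p = 0.443), against 0.34. Lss 1420013_s_at gave 0.0062, against 0.32, and Srebf2 1426744_at gave 0.14, against -0.28. Suffixes of the names mark probe design: an _x_at set can hold probes shared with other sequences and an _s_at set can match several transcripts. Hmgcs1 1433443_a_at has neither suffix, and both Srebf2 probe sets and Lss 1426913_at end in _at alone. Whether probe design has a part in these disagreements was not tested. Sqle, Insig1, Fdps and Idi1 had no called difference between numbers, and that of Sqle between 7 and 1 was 0.020 (interval -0.043 to 0.083).

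**Figure D3:**
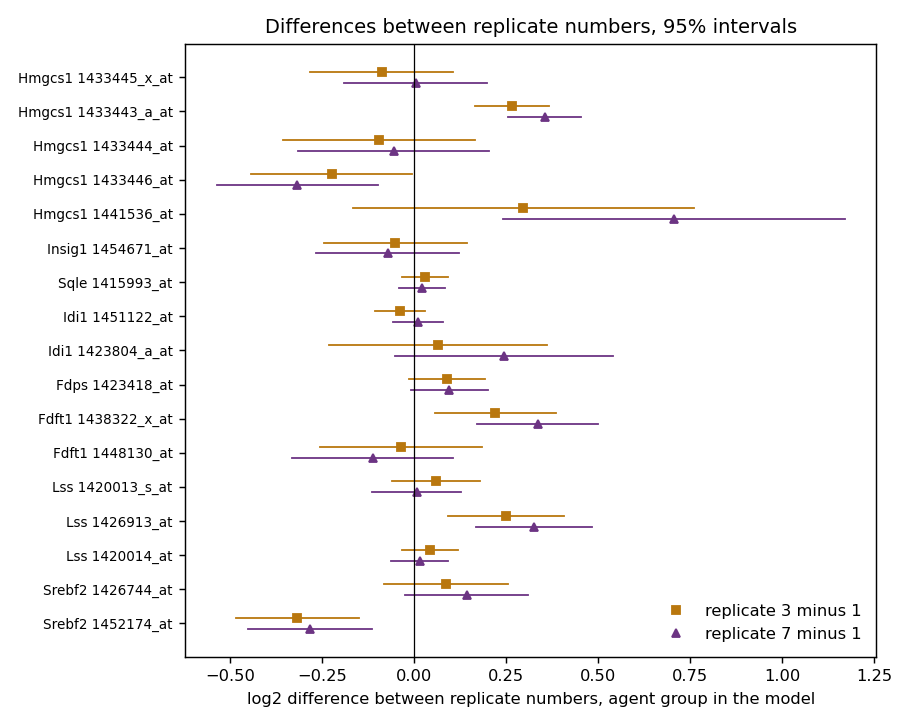
log2 difference of replicate 3 and of replicate 7 from replicate 1, with 95% intervals, for the 17 probe sets, with the agent group in the model. Hmgcs1 1433443_a_at lies at 0.27 and 0.35 and Hmgcs1 1433446_at at -0.23 and -0.32, while both differences of Sqle are near 0.

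On their most intense probe sets, the 8 genes had pairwise correlations of both signs over the 9 arrays. Among their 28 pairs, taken on the most intense probe sets, Pearson's r over 9 arrays had a median of 0.20 and was positive for 20. It ran from -0.79 between Lss and Idi1 to 0.72 between Idi1 and Hmgcs1. These arrays share drugs, replicate numbers and scaling, so the correlations are descriptions. The probe sets varied little, with the highest array 1.13 (Fdps) to 1.38 (Fdft1) times the lowest. Whether the genes move together was not tested. When each gene was standardised over the arrays and the 8 were averaged, the double-drug arrays lay between 0.24 and 0.77 SD, the control arrays between -0.55 and 0.17, and the cytochalasin D arrays between -0.95 and 0.19. Among 12643 genes outside the set, the profiles most like that average were those of Vasn (r = 0.964), Fyb (0.889), Rnd2 (0.872), Tob2 (0.848) and Zfp317 (0.847), of which Fyb and Zfp317 were dim, with Fyb between 8.2 and 8.72.

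Some values were equal to the last digit on different arrays: Hmgcs1 1433444_at had 3 equal pairs among 36 array pairs, and Hmgcs1 1433445_x_at, Lss 1420014_at and Srebf2 1426744_at had 1 each. Up to 5.06% of all probe sets were equal between 1 pair of arrays, so no arrays are copies.

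Around the 8 genes, 5 lists of the pathway's surroundings gave 47 tested genes of 56, each on its most intense tested probe set. With cytochalasin D, 1 of the 47 rose and none fell, beside 1.93% of all 12651 genes called. With the drug pair none was called, beside 0.142%, and between cytochalasin D alone and the pair none was, beside 0.332%. At an unadjusted p under 0.05 there were 6, 2 and 4 of 47 in the 3 comparisons, beside 11.7%, 6.02% and 4.85% of all genes.

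The gene that rose was Sc5d, a desaturase near the end of sterol synthesis and 1 of 14 other sterol enzymes tested. Sc5d 1451457_at had an intensity of 1393 ± 12.6 in control, 1611 ± 61.8 with cytochalasin D and 1558 ± 14.4 with the drug pair (SD, n = 3 each). Its change with cytochalasin D was 0.21 (SE 0.028, adjusted p = 0.0171), and with the pair 0.16 (adjusted p = 0.16). Its other probe sets were not called in the first comparison, 1434520_at at 0.11 (adjusted p = 0.924) and 1424709_at at 0.11 (adjusted p = 0.9). The call ended without any 1 of the control arrays (adjusted p = 0.0565, 0.0778 and 0.0645 without replicates 1, 3 and 7) and without cytochalasin D replicate 1 (0.0503). The list's median change was 0.028 with cytochalasin D, 0.050 with the pair and -0.049 between the drugs.

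Among 10 tested regulators and carriers of the SREBP pathway none was called between groups, with medians of -0.090, -0.028 and -0.060 in the 3 comparisons. The lowest adjusted p there belonged to Rnf139, a ubiquitin ligase of the endoplasmic reticulum, at -0.16 with cytochalasin D (adjusted p = 0.145). None of 13 fatty acid genes known as SREBP targets was called, with medians of -0.021, -0.015 and -0.021. The highest change among them was that of Elovl5, an elongase of polyunsaturated fatty acids, which had an intensity of 1531 ± 402 in control and 2673 ± 279 with cytochalasin D (SD, n = 3 each), a difference of 0.82 (adjusted p = 0.166). None of 8 genes of the isoprenoid branches and neither of the 2 tested LXR and efflux genes (Lpcat3 and Mylip) was called; Nr1h3, Abca1 and Abcg1 were too dim to test.

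Between replicate numbers 11 of the 47 list genes were called, beside 13.7% of all genes. They went both ways. Of 7 over 1, the differences were positive for Dhcr7 (0.50, F-test adjusted p = 0.0459) and Nsdhl (0.27, 0.0472), enzymes late in sterol synthesis, for Srebf1 (0.41, 0.0198), the gene of the SREBP that favours fatty acid synthesis, and for Acss2 (0.77, 0.0196), which makes acetyl-CoA from acetate. They were also positive for Scd1 (0.20, 0.044), a fatty acid desaturase, for Lpcat3 (0.34, 0.0143), an acyltransferase of phospholipids, for Mylip (0.77, 0.0353), a ubiquitin ligase induced by LXR, and for Coq2 (0.24, 0.0464), of ubiquinone synthesis. They were negative for Tmem97 (-0.47, 0.0366), Mbtps1 (-0.30, 0.0472), the protease that cuts SREBP, and Icmt (-0.73, 0.0143), which methylates prenylated proteins.

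**Figure D4:**
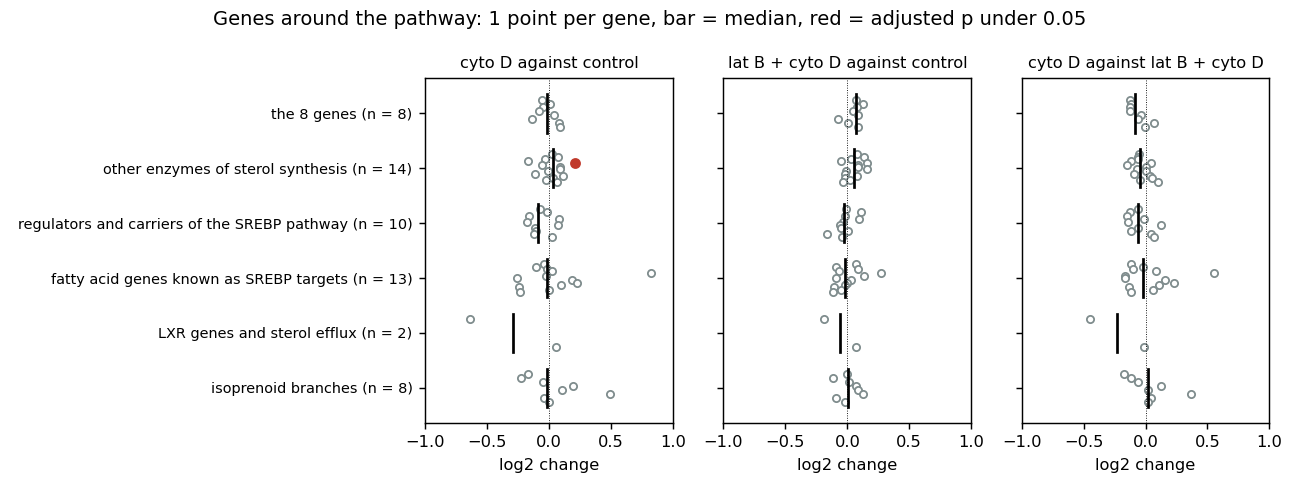
log2 change of each tested gene, on its most intense tested probe set, for the 8 genes and the 5 surrounding lists in the 3 comparisons; bars are medians and the filled red point is the gene with an adjusted p under 0.05. That gene is Sc5d at 0.21 with cytochalasin D, and Elovl5 at 0.82 is the highest point in that panel without a call.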

How the data were processed

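Total RNA of 9 cultures was labelled with biotin and hybridised to Affymetrix arrays, and 1 value per probe set and array was used. The authors deposited these values as linear intensities; MAS5 and GCRMA are both listed in the submitters' processing notes, without a role, so which of them made the deposited intensities is unknown, and normalization between arrays was kept as deposited. Gene names came from GEO's platform annotation, in which 34958 probe sets had 1 symbol, 932 several and 9211 none, and 34754 matched the RefSeq table by gene ID.

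The values were taken as log2(intensity + 16). Probe sets above the 40th percentile of their array on at least 3 arrays were fitted with limma 3.58.1 (R 4.3.3), 1 coefficient per group over all 9 arrays, and p-values were adjusted over all 27010 tested probe sets by Benjamini-Hochberg. All tests were two-sided. Replicate numbers were tested in a model with agent group and number. The fit was tested on simulated data with known changes. Named genes are the members, up to 4 genes per list with the lowest adjusted p, the 5 nearest profiles, Srf and Acta2. The members and lists were chosen with earlier results of these data known.

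Pairing of the numbers was checked by correlating deviations from group means. For cytochalasin D and control, r was 0.71, 0.076 and 0.65 for numbers 1, 3 and 7; for the drug pair and control 0.83, 0.41 and 0.66; for both drug groups 0.73, 0.41 and 0.76. By the rule that every r exceed 0.1, numbers pair the samples in the last 2 comparisons. Intervals and p-values given for these 2 are from the fit without the number, unless the replicate block is named. For 8 of the 9 arrays, the mean correlation with the arrays of the other groups was highest for their own number. Alternatives were the replicate block, other pseudocounts, filters and scalings, a trended prior, fewer arrays and each array left out.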

Additional observations from a re-analysis of the deposited data

How the results depend on the processing

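For the 3 drug comparisons, the count of called member probe sets was 0 under every alternative run, leaving out each array included. The replicate block also left it at 0 in each, so the pairing changed no call of a member; over all probe sets it moved the counts from 423 to 1044 for cytochalasin D against control, from 30 to 123 for the drug pair against control and from 70 to 99 between the drugs. With the block, 3 list genes were called with cytochalasin D (Sc5d 0.0257, Elovl5 0.0189 and Icmt 0.0337 as adjusted p). The count of 1 for the replicate number became 2 with pseudocount 1, with quantile normalization and with the trended prior, 5 with the 60th percentile filter and with median centring, and 0 without the agent term or without any 1 of the 3 groups. Leaving out 1 array gave 0 to 2. The cause was not tested. Over all probe sets that test called 3399, from 1069 without a filter to 6446 with median centring, 170 to 2992 with 1 array left out, and 0 without any 1 of the 3 groups. The alternatives of Sc5d, Srf and Acta2 were chosen after seeing the data. The call of Srf with cytochalasin D and that of Acta2 held under each of them, while Srf with the drug pair was lost with pseudocount 64 (adjusted p = 0.0594), no filter (0.0856), quantile normalization (0.0565) and the 6 arrays compared (0.177). Sc5d was also lost with the stricter filter (0.171), median centring (0.175), the trended prior (0.196) and the 6 arrays compared (0.118).

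Signs turned in 21 of 551 values of single genes, all of them uncalled. Insig1 with cytochalasin D was -0.026 with quantile normalization. With 1 array left out, it ran from -0.044 to 0.053 and Hmgcs1 from -0.12 to 0.0057. With the drug pair, Lss ran from -0.016 to 0.035 and Fdft1 from -0.19 to 0.043, and between the drugs Fdft1 ran from -0.18 to 0.017 and Srebf2 from -0.050 to 0.091. Other probe sets turned the sign with cytochalasin D (Lss -0.0013 and -0.16, Hmgcs1 0.21, Fdft1 0.036), with the pair (Hmgcs1 -0.25, Fdft1 0.037) and between the drugs (Lss -0.013 and -0.34, Hmgcs1 0.022, Srebf2 0.051). The dim Hmgcs1 1441536_at had the widest intervals of the members.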
